A study of Mus musculus with 6 samples.

Results

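The Eph receptors are a family of receptor tyrosine kinases, and 10 of them were examined in striatal RNA: Epha3, Epha4, Epha5, Epha6, Epha7, Ephb1, Ephb2, Ephb3, Ephb4 and Ephb6. They are rows of a table of 45777 RefSeq genes, matched by gene symbol, and all 10 were found and passed the filter on low counts. The table holds 14 Eph receptor genes in all, and the other 4 (Epha1, Epha2, Epha8 and Epha10) are described beside them. The receptors were chosen by name, with the differences between the groups in these same libraries already known, and which values weighed in the choice is not recorded. Their differences between the groups are therefore given as a description and support nothing by themselves.

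RNA was sequenced from the striatum of offspring (F1) aged 6 weeks, of the outbred ICR mouse strain. Both groups had drug-untreated dams and carried no stated genetic change. The sires (F0) of the saline-sired group received saline (10 mL/kg) and those of the methylphenidate-sired group methylphenidate (15 mg/kg), subcutaneously for 21 days from the age of 6 weeks, before mating. Methylphenidate is a stimulant that blocks reuptake of dopamine and noradrenaline, and the labels name no drug given to the offspring. Each group has 3 libraries and, in the labels, 2 females and 1 male. How many sires and litters stood behind them is not stated in those labels, so that a p-value reflects the spread among these libraries alone, whose animals may be littermates. The comparison asked how gene expression in the striatum of offspring differed with the sire's treatment.

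Eph receptors bind ephrins, which are held on the surface of neighbouring cells, so the pair signals at cell contacts. Ephrin-A ligands are anchored by a lipid and ephrin-B ligands span the membrane. EphA receptors bind mainly ephrin-A and EphB receptors mainly ephrin-B, with EphA4 binding both classes. Binding drives forward signalling into the receptor's cell, which reshapes its cytoskeleton, and reverse signalling into the ephrin's cell. In the developing forebrain these contacts guide axons, among them those from cortex to striatum, and in the mature brain they act at dendritic spines and on astrocytes.

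Libraries are called by group and by the number in their column, which is 3, 4 and 5 in the saline-sired and 2, 4 and 6 in the methylphenidate-sired group, and values are given in that order throughout. No column was tied to one labelled animal or sex. Total counts lay between 31360042 and 38844724 per library. Medium spiny neurons send the output of the striatum, and all 13 of their markers were detected in every library, summing to 11486 to 12278 CPM (read counts scaled to a common library size with TMM) in the saline-sired and 9654 to 10793 CPM in the methylphenidate-sired group. The 11 markers of cortical excitatory neurons, none at 0, differed more, with a summed level of 624, 356 and 808 CPM against 970, 1026 and 1149, and the choroid plexus markers reached 2120 CPM in saline-sired library 3, where Ttr made up most of the sum, against at most 372 CPM in the other libraries. In bulk tissue, fewer cells of a type and less RNA per cell cannot be told apart.

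Of 3 promoters, that of Ephb3 is shown because this receptor had the largest positive difference between the groups, that of Ephb4 because it had the largest negative one, and that of Epha4 because its transcript was the most abundant. Each window holds 250 bases before and 50 after an annotated start, in RefSeq's GRCm38.p6 (the assembly that mm10 names), and is written 5′ to 3′ on the gene's strand. They lie at chr16:21204545-21204844 (plus strand, Ephb3), chr5:137349859-137350158 (plus strand, Ephb4) and chr1:77515039-77515338 (minus strand, Epha4). The annotated start used is not always the outermost one of the gene. Most of the Ephb3 window lies inside the annotated gene, which begins at 21204620. Capitals mark the GC box GGGCGG or its reverse complement CCGCCC, a short GC-rich sequence bound by Sp1-like factors.
Ephb3: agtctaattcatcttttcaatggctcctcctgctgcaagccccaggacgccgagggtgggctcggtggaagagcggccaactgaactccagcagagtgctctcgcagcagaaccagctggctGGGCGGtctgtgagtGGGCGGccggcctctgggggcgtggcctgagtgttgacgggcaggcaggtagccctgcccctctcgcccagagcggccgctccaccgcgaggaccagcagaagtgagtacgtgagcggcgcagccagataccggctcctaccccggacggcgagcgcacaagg
Ephb4: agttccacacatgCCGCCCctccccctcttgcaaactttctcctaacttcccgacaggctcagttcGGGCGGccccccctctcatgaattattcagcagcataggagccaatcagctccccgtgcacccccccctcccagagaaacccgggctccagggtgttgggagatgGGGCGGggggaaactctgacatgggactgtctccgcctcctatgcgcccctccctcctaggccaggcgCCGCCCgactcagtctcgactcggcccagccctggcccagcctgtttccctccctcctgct
Epha4: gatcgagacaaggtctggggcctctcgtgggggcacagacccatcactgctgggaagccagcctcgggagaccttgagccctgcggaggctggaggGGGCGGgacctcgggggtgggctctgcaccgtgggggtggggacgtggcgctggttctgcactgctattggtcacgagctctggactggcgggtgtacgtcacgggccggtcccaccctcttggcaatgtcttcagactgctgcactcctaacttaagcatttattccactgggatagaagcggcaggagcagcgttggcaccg
The GC box stood 2 times in the Ephb3 window, 4 times in that of Ephb4 and 1 time in that of Epha4. At least 1 was found in 7 of the 10 receptors, and in 35.7% of the 32851 promoter windows of that length in the table. The windows of Epha5, Epha6, Ephb2 and Ephb6 lie wholly inside the annotated gene, so they are not all sequence upstream of it. The TATA box (TATAAA, either strand) was in none of the windows of the 10 receptors and in 13.6% of all windows. The receptors' windows held between 14 and 34 CG dinucleotides, against a median of 7 over all windows. The core TGACG of cAMP response elements (either strand) was in the windows of 3 receptors, Epha4, Ephb1 and Ephb3, and in 20.8% of all windows. These matches describe the letters and say nothing of binding.

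To compare levels between genes, CPM was divided by the exon length of each gene in GENCODE. Epha4 was the most abundant of the 10 receptors, with a median over the 6 libraries of 34.4 CPM per kb (33.6 to 37.7) and at percentile 92.0 of 14775 tested genes with a length. Ephb6, a receptor whose kinase domain is catalytically inactive, came next at 27.0 CPM per kb (20.6 to 28.1) and did not overlap with Epha4 in any library. Epha6 (14.8, range 9.74 to 17.2), Ephb1 (10.5, range 9.11 to 13.4) and Epha7 (8.54, range 6.06 to 9.76) followed, below every value of Ephb6 and overlapping with one another. Epha5 stood apart below them at 3.82 CPM per kb (2.40 to 4.33). Ephb3 (1.67, range 0.993 to 2.12), Ephb4 (1.13, range 0.675 to 1.52), Epha3 (0.794, range 0.502 to 1.06) and Ephb2 (0.746, range 0.631 to 1.18) were lowest and overlapped with their neighbours, Ephb2 at percentile 17.2. Per kb of coding sequence, Epha4 and Ephb6 kept ranks 1 and 2 by their medians, at 93.6 and 33.5 CPM per kb. Epha7 (28.2), Ephb1 (24.9), Epha6 (23.1) and Epha5 (20.5) then followed in that order. Ephb4 was lowest at 1.75, and Ephb2 went from rank 10 to rank 8. Ephb6, at 25.6 in its lowest library, then overlapped with Epha7, Ephb1 and Epha6, which reached 32.2, 31.9 and 26.8. Epha5 reached 23.2 and overlapped with these genes too, among them Ephb1 (from 21.6) and Epha6 (from 15.2). The order below Ephb6, and the gaps below Ephb6 and above Epha5, therefore depend on the length used. Epha5 has exons of 16739 bases of which 3120 are coding.

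**Figure D1:**
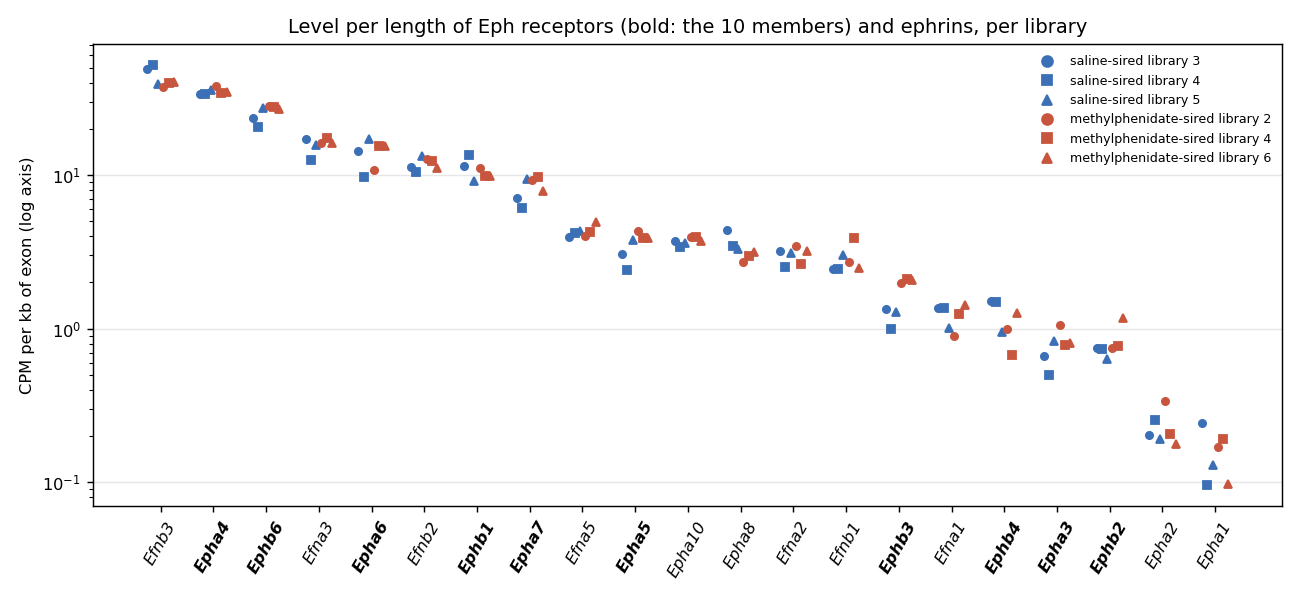
CPM per kb of exon on a log axis for the Eph receptors (the 10 described here in bold) and ephrins, one point per library, blue for saline-sired and red for methylphenidate-sired, ordered by the median. Efna4 is left out because it was at 0 in 2 libraries. Efnb3 and Epha4 lie at the top, and by their medians Epha1 and Epha2 lie below all 10 receptors.

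Of the summed level per kb of the 10 receptors, Epha4 made up 32.5% to 37.5% in each library and Ephb6 23.0% to 26.5%. With Epha6 and Ephb1 these genes made up 82.7% to 86.4%. These shares, and the choice of the most abundant genes, hold for exon length only. Per kb of coding sequence, Epha7 had rank 3 among the 10 receptors, above Ephb1 and Epha6. The 10 receptors together held 92.0% to 93.7% of the summed level of all 14 Eph receptors. The EphB members summed to 38.6, 37.3 and 39.3 CPM per kb in the saline-sired and 43.0, 41.2 and 41.1 in the methylphenidate-sired libraries, which did not overlap. Ephb6 and Ephb1 make up most of that sum. Each of these genes overlapped between the groups, with log2 fold changes (methylphenidate-sired minus saline-sired) of 0.21 and -0.14. Of all single genes tested, 14.8% had groups that did not overlap, 7.84% higher. Because the receptors were picked with this contrast known, nothing is read from the EphB sum. The EphA members summed to 58.7, 52.4 and 67.0 against 63.2, 64.1 and 62.4, with the methylphenidate-sired libraries inside the range of the saline-sired ones.

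Between the groups, Ephb3 stood out among the 10 receptors, with 1.71-fold higher counts in the methylphenidate-sired libraries. Epha5 was the other receptor whose groups did not overlap (1.31-fold higher), while Epha4, the most abundant, was within 1.03-fold. In 8 of the 10 the log2 fold change (methylphenidate-sired minus saline-sired) was above 0, with a median of 0.23 and a range from -0.43 to 0.77, whereas 47% of the 17874 genes tested were above 0, with a median of -0.01. In the fit over all genes (edgeR quasi-likelihood test, Benjamini-Hochberg, threshold 0.05), 0 of the 10 passed, where 0.0224% of all genes did, and the smallest adjusted p was that of Ephb3 (edgeR adjusted p = 0.343). At an unadjusted p under 0.05 there were 2 (Ephb3 and Epha5), both higher, where 9.02% of all genes were under it, 5.07% higher and 3.95% lower. The same 2 had groups that did not overlap, against 14.8% of all genes, 7.84% higher and 7.01% lower. DESeq2 called Ephb3 as higher (DESeq2 adjusted p = 0.00103) and none of the others, where it called 1.15% of the genes it gave an adjusted p, 0.901% as higher. Limma-voom called none of the 10, and 0.0224% of all genes. Because the receptors were picked with this contrast known, nothing is read from these counts.

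**Figure D2:**
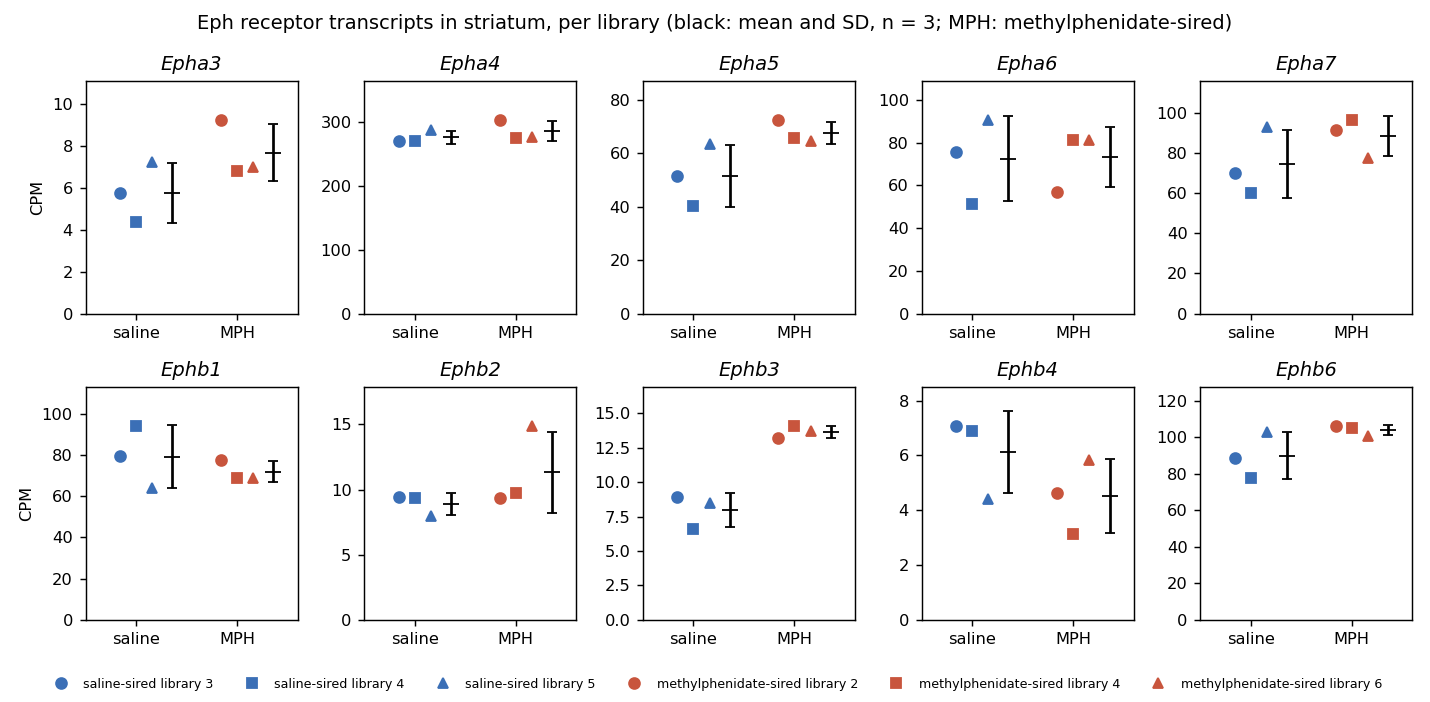
CPM (vertical axis, from 0) of each of the 10 receptors in the 3 saline-sired (blue) and 3 methylphenidate-sired (red) libraries, with mean and SD in black. The red points lie above all blue points for Ephb3 and Epha5 and overlap with them for the other 8.

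Among the EphA receptors, Epha4 (Gene ID 13838, chromosome 1, 77367182 to 77515107 in GRCm38.p6) binds ephrins of both classes and acts in axon repulsion and at spines. Its level was 271, 271 and 288 CPM in saline-sired offspring, and 304, 276 and 278 CPM in methylphenidate-sired offspring. The groups overlapped, and the log2 fold change was 0.05 (SE 0.06). It varied least of the 10 receptors across the 6 libraries.

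Epha5 (Gene ID 13839, chromosome 5, 84054761 to 84417818) binds ephrin-A ligands and takes part in topographic mapping of axons and in synapse formation. Its level was 51.3, 40.1 and 63.3 CPM in saline-sired offspring, and 72.4, 65.4 and 64.7 CPM in methylphenidate-sired offspring. All 3 methylphenidate-sired libraries were above the highest saline-sired one, by a narrow margin. The means were 51.6 ± 11.6 and 67.5 ± 4.26 CPM (SD, n = 3), with a log2 fold change of 0.39 (SE 0.15) that was 0.24 when saline-sired library 4 was left out and 0.57 when library 5 was. The cortical excitatory marker sum was also higher in all 3 methylphenidate-sired libraries. Like Epha5, it was lowest in saline-sired library 4 and, within that group, highest in library 5. Among the methylphenidate-sired libraries its order was the reverse of that of Epha5. The part of these markers in the difference of Epha5 was not tested.

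Epha7 (Gene ID 13841, chromosome 4, 28813066 to 28967503), another ephrin-A receptor of cortical and striatal axon mapping, had 70.2, 59.9 and 93.1 CPM against 91.3, 96.5 and 77.5 CPM. Saline-sired library 5 lay between methylphenidate-sired libraries 2 and 4, so the groups overlapped. The log2 fold change was 0.25 (SE 0.15), and it ran from 0.12 (saline-sired library 4 left out) to 0.45 (library 5 left out). Epha6 (Gene ID 13840, chromosome 16, 59641433 to 60610911), an ephrin-A receptor found on cortical and retinal neurons, had 75.6, 51.5 and 90.7 CPM against 57.1, 81.3 and 81.4 CPM. Its low libraries were one of each group, saline-sired 4 and methylphenidate-sired 2, and its log2 fold change was 0.01 (SE 0.21). The sign was not stable: it was -0.18 without saline-sired library 4, -0.05 and -0.07 without methylphenidate-sired library 4 or 6, and below 0 with upper-quartile scaling or none, while leaving out methylphenidate-sired library 2 gave 0.18 and saline-sired library 5 gave 0.22. An antisense gene, Gm9017, overlaps 2.02% of the exon length of Epha6.

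Epha3 (Gene ID 13837, chromosome 16, 63543532 to 63864175), a receptor for ephrin-A5, was the scarcest EphA member. It had 5.74, 4.36 and 7.22 CPM against 9.25, 6.82 and 6.98 CPM, which are 228, 139 and 225 against 304, 218 and 236 reads. Saline-sired library 5 was above 2 of the methylphenidate-sired libraries. The log2 fold change was 0.41 (SE 0.21) and moved between 0.25 and 0.62 as each library was left out.

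Among the EphB receptors, Ephb3 (Gene ID 13845, chromosome 16, 21204620 to 21223309) binds ephrin-B ligands and acts with Ephb2 in the guidance of commissural axons. Its level was 8.91, 6.59 and 8.47 CPM in saline-sired offspring, and 13.2, 14.1 and 13.7 CPM in methylphenidate-sired offspring, which are 354, 210 and 264 against 434, 450 and 464 reads. Every methylphenidate-sired library was above every saline-sired one, and they lay within 1.07-fold of each other against 1.35-fold in the saline-sired group. The means were 7.99 ± 1.23 and 13.7 ± 0.439 CPM (SD, n = 3), and the log2 fold change was 0.77 (SE 0.13). It ran from 0.65 without saline-sired library 4 to 0.86 without saline-sired library 3, with an edgeR adjusted p between 0.105 and 0.818 over the 6 fits that each leave out a library. The cortical marker sum was also higher in all 3 methylphenidate-sired libraries, with 11 of 11 markers above 0 in log2 fold change, while 13 of 13 medium spiny neuron markers were below 0. Their part in the difference of Ephb3 was not tested.

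Ephb2 (Gene ID 13844, chromosome 4, 136647536 to 136836326), which clusters NMDA receptors at excitatory synapses, had 9.44, 9.33 and 7.95 CPM against 9.38, 9.70 and 14.9 CPM. Methylphenidate-sired library 6 stood alone above the other 5, and without it the log2 fold change of 0.35 (SE 0.19) was 0.10. The thalamic neuron markers summed to 51.5 CPM in that library, the highest of the 6. Saline-sired library 4 had nearly as much thalamic signal at 44.6 CPM, with Ephb2 at 9.33 CPM. The thalamic list has 4 genes, 2 above and 2 below 0 in log2 fold change, of which Lhx9 was at 0 in some libraries, and their part in the values of Ephb2 was not tested.

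Ephb1 (Gene ID 270190, chromosome 9, 101922128 to 102354693), which guides ventral retinal and other ephrin-B-sensitive axons, had 79.8, 94.2 and 63.8 CPM against 77.8, 68.7 and 69.1 CPM. It went the other way from most receptors, with its highest value in saline-sired library 4. The log2 fold change of -0.14 (SE 0.13) was 3.3e-04 without that library and -0.26 when library 5 of the same group was left out. The lincRNA gene Gm26846, on the other strand, overlaps 2.17% of its exon length.

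Ephb4 (Gene ID 13846, chromosome 5, 137350109 to 137374522) is the receptor of venous endothelium, where it meets ephrin-B2 of arteries. It had 7.07, 6.88 and 4.39 CPM against 4.63, 3.13 and 5.83 CPM, or 281, 219 and 137 against 152, 100 and 197 reads. Saline-sired libraries 3 and 4 were highest and methylphenidate-sired library 4 lowest, and the groups overlapped. The log2 fold change was -0.43 (SE 0.27), and it was -0.21 when methylphenidate-sired library 4 was left out and -0.66 when library 6 was. The endothelial markers, 8 of 8 detected, summed to 200 to 232 CPM in the saline-sired and 193 to 248 CPM in the methylphenidate-sired group. The mural markers, 5 of 5 detected, summed to 160 to 183 and 152 to 187 CPM. Both sums were lowest in methylphenidate-sired library 4, as was Ephb4. Both were highest in methylphenidate-sired library 2, where Ephb4 was at 4.63 CPM. In log2 fold change, 4 endothelial markers were above 0 and 4 below, and all 5 mural markers were below. The part of these markers in the values of Ephb4 was not tested. Zan, on the other strand, overlaps 0.711% of the exon length of Ephb4.

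Ephb6 (Gene ID 13848, chromosome 6, 41603834 to 41620509), the kinase-inactive member that signals through its partners, had 88.9, 77.8 and 103 CPM against 106, 105 and 101 CPM. Saline-sired library 5 lay inside the range of the methylphenidate-sired group. The log2 fold change was 0.21 (SE 0.10), and leaving out saline-sired library 4 gave 0.12 and leaving out library 5 of that group 0.33.

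**Figure D3:**
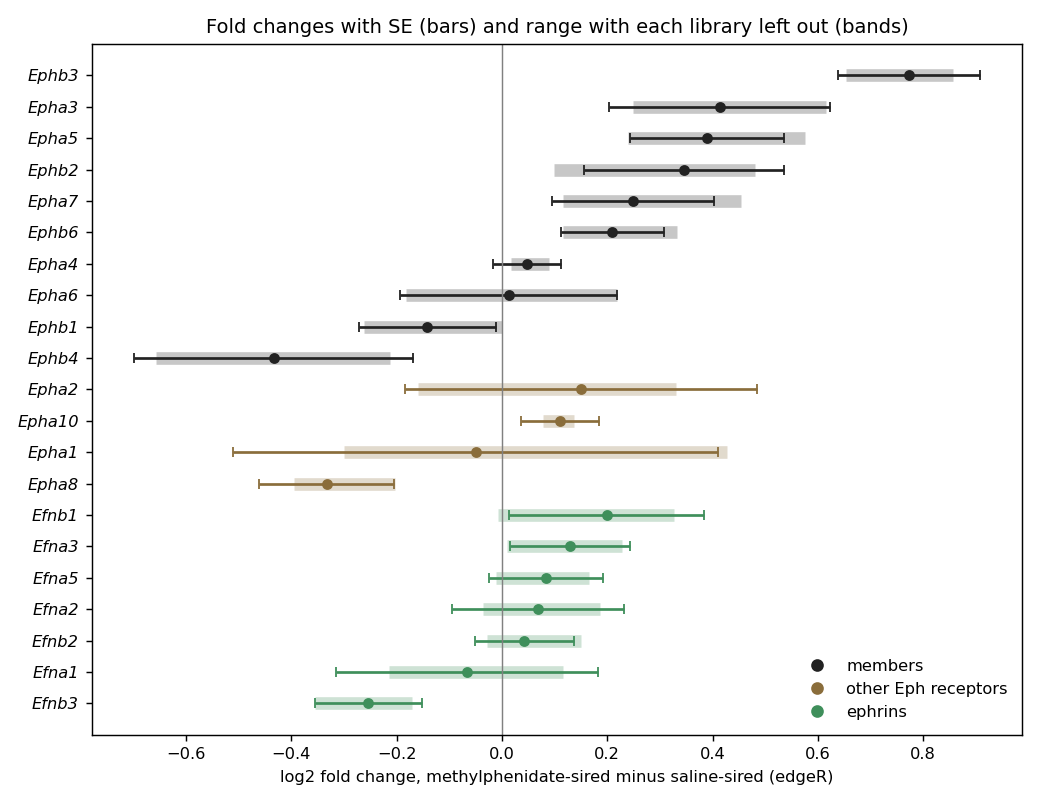
Log2 fold change, methylphenidate-sired minus saline-sired (horizontal axis), with SE bars from edgeR; bands give the range when each library is left out. Black marks the 10 receptors, brown the other 4 Eph receptors and green the 7 ephrins tested. Ephb3 lies farthest to the right at 0.77 and Ephb4 farthest to the left at -0.43.

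Across libraries, 6 of the 10 receptors (Epha3, Epha5, Epha6, Epha7, Ephb3 and Ephb6) were lowest in saline-sired library 4, which was the lowest library for 20.5% of all genes tested. The same library had the highest Ephb1. It also had the lowest cortical excitatory marker sum, 356 CPM, and the highest oligodendrocyte marker sum, 13242 CPM against 7065 to 9742 in the other 5. The remaining receptors were lowest elsewhere, Epha4 in saline-sired library 3, Ephb1 and Ephb2 in saline-sired library 5 and Ephb4 in methylphenidate-sired library 4. Without saline-sired library 4, 8 of the 10 fold changes were above 0, with Ephb1 now among them and Epha6 no longer. In that fit the values of Epha3, Epha5 and Epha7 were 0.25, 0.24 and 0.12 in log2 units, against 0.41, 0.39 and 0.25 with all libraries. In 7 of the 10 the spread within the saline-sired group (SD of log2 CPM) was wider than in the methylphenidate-sired group, against 57.0% of all genes. The part of the cortical and oligodendrocyte markers in these receptor values was not tested.

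**Figure D4:**
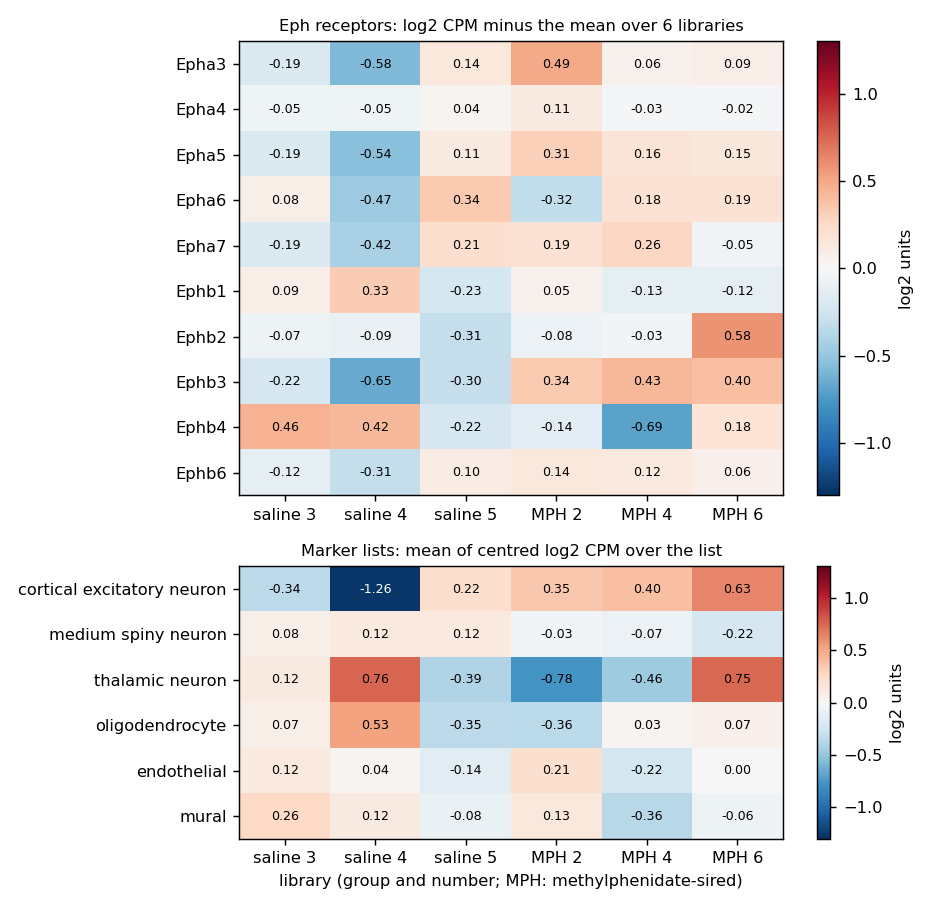
Upper panel, log2 CPM of each receptor minus its mean over the 6 libraries; lower panel, the same averaged over marker lists of 6 cell types; columns are libraries and colour and printed values are in log2 units. Saline-sired library 4 has the lowest cortical score (-1.26) and values of -0.31 to -0.65 in 6 receptors, while Ephb1 is at 0.33 there.

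Of the 4 Eph receptors outside the group of 10, 0 passed the test over all genes (edgeR adjusted p between 0.497 and 0.986), where 0.0224% of all genes did. Under an unadjusted p of 0.05 there was 1, Epha8, against 9.02% of all genes. DESeq2 and limma-voom called 0, where they called 1.15% and 0.0224% of the genes they gave an adjusted p. Epha10, like Ephb6 a kinase-inactive receptor, had 26.6, 24.6 and 26.1 CPM against 28.3, 28.3 and 26.8 CPM (log2 fold change 0.11, SE 0.07). Epha8, an ephrin-A receptor of midbrain and other axons, had 20.6, 16.4 and 15.6 CPM against 12.9, 14.0 and 14.9 CPM (log2 fold change -0.33, SE 0.13, and -0.20 without saline-sired library 3). Neither overlapped between the groups, in opposite directions, where 14.8% of all genes did not overlap. Epha1 and Epha2, receptors best known in epithelia, were at 0.377 to 0.956 and 0.828 to 1.58 CPM, or 12 to 38 and 28 to 52 reads per library. The Epha1 count is uncertain, since Zyx on the other strand overlaps 6.01% of its exon length and transcript sequence of 2010010A06Rik matches it at 95.8% over 455 bases.

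The ephrins, the ligands of these receptors, showed no call either. Of 8 listed, 7 were tested and 0 passed (edgeR, adjusted p between 0.507 and 0.963), where 0.0224% of all genes did. At an unadjusted p under 0.05 there was 1, Efnb3, against 9.02% of all genes. DESeq2 and limma-voom called 0, where they called 1.15% and 0.0224% of the genes they gave an adjusted p. Efnb3, a transmembrane ligand that acts as a midline barrier to axons, was the most abundant of all 22 Eph and ephrin genes at 40.1 CPM per kb (37.6 to 52.0). It had 157, 166 and 125 CPM against 119.5, 127 and 129 CPM, and its log2 fold change, the largest in size among the ephrins tested, was -0.25 (SE 0.10). Saline-sired libraries 3 and 4 were high and library 5 was among the methylphenidate-sired ones. Efnb2, which meets EphB4 in vessels and EphB receptors on neurons, had 77.9, 72.1 and 90.5 CPM against 87.1, 84.4 and 76.2 CPM (log2 fold change 0.04, SE 0.09). Efnb1, on the X chromosome, had 8.46, 8.48 and 10.4 CPM against 9.41, 13.4 and 8.52 CPM (log2 fold change 0.20, SE 0.19). Both overlapped between the groups.

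Of the lipid-anchored ligands, Efna3 was the most abundant per length, at 16.1 CPM per kb, with 41.6, 30.4 and 38.1 CPM against 39.1, 42.2 and 39.1 CPM (log2 fold change 0.13, SE 0.11). That value was 0.01 without saline-sired library 4 and 0.23 without library 3. Efna3 was lowest in saline-sired library 4, as were the 6 receptors above and Efna2, Efnb2, Epha1 and Epha10. Efna1, Efna5, Efnb1, Efnb3, Epha2 and Epha8 were lowest elsewhere. That library was the lowest for 20.5% of all genes tested. An antisense gene, Gm15998, overlaps 14.1% of the exon length of Efna3. Efna5, the main ligand of EphA5 and EphA3 in mapping, had 15.9, 16.9 and 17.5 CPM against 16.1, 17.2 and 20.1 CPM (log2 fold change 0.08, SE 0.11). Efna2 and Efna1, other ephrin-A ligands, had log2 fold changes of 0.07 (SE 0.16) and -0.07 (SE 0.25), at 5.34 to 7.34 and 1.64 to 2.60 CPM. Efna4 did not pass the filter, with at most 0.352 CPM. The ephrin-B sum per length was 63.1, 65.0 and 55.4 CPM per kb against 53.0, 56.0 and 54.1, and the ephrin-A sum 25.8, 20.5 and 24.1 against 24.5, 25.7 and 25.8.

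Of 32 listed genes of forward signalling, 31 were tested and 0 passed (edgeR, smallest adjusted p = 0.452), where 0.0224% of all genes did. In 19 the fold change was above 0, with a median of 0.02, where 47% of all genes were above 0. An unadjusted p under 0.05 was found for 2, both higher, against 9.02% of all genes, 5.07% higher. In 5 the groups did not overlap, all higher, against 14.8% of all genes, 7.84% higher. Sh2d3c, an adaptor that binds EphB2, had the lowest p, with 10.0, 8.07 and 8.85 CPM against 12.3, 12.4 and 11.5 CPM (log2 fold change 0.42, SE 0.12). Pak1, a kinase of cytoskeletal control, had 104, 179 and 243 CPM against 264, 262 and 292 CPM (log2 fold change 0.64, SE 0.25). Its saline-sired libraries were spread over more than the difference between the groups, and the value was 0.36 when saline-sired library 3 was left out and 0.96 when library 5 was. Ngef, the striatum-rich exchange factor ephexin that acts downstream of EphA4, had 538, 561 and 512 CPM against 515, 452 and 474 CPM (log2 fold change -0.16, SE 0.07, and -0.11 without methylphenidate-sired library 4), and these groups overlapped. All 13 medium spiny neuron markers were below 0 as well, with a median log2 fold change of -0.21. The part of these markers in the value of Ngef was not tested. Abl2, a tyrosine kinase that acts on actin, had 87.0, 82.9 and 81.8 CPM against 90.2, 87.4 and 97.5 CPM (log2 fold change 0.13, SE 0.06, and 0.08 without methylphenidate-sired library 6).

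Of the 10 listed genes of ephrin reverse signalling and cleavage, all were tested and 0 passed (edgeR, smallest adjusted p = 0.497), where 0.0224% of all genes did. In log2 fold change 4 were above 0 and 6 below, with a median of -0.04. Ptpn13, a phosphatase that binds ephrin-B, had 20.9, 23.1 and 21.5 CPM against 18.5, 19.5 and 18.2 CPM (log2 fold change -0.22, SE 0.08), and was the only one of the 10 at an unadjusted p under 0.05 and without overlap between the groups, where 9.02% and 14.8% of all genes were. Rgs3, which links ephrin-B to G-protein signalling, had a log2 fold change of -0.24 (SE 0.16), which was -0.08 when saline-sired library 4 was left out and -0.39 when library 5 was. That of Adam10, the protease that cuts ephrin-A after binding, was 0.10 (SE 0.07), and 0.04 without saline-sired library 3. That of Grip1, a scaffold of ephrin-B, was 0.11 (SE 0.10), and it ran from 0.06 (saline-sired library 4 left out) to 0.22 (library 3 left out). DESeq2 and limma-voom called 0 genes in either list, where they called 1.15% and 0.0224% of the genes they gave an adjusted p.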

How the data were processed

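The authors' deposited table gives whole-number read counts per RefSeq gene, not normalized, per the file headers. The submitters' processing notes name the build mm10 and the tools HISAT2 2.1.0, StringTie 2.1.3b, bcl2fastq 2.20.0 and Trimmomatic. Strand setting and handling of multi-mapped reads: not given in the sources used here. Counts of genes with overlapping neighbours are therefore uncertain. Columns were tied to a group by name ("cont" and "father"). A further 12 per-library columns, FPKM and TPM by name, were not used.

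Counts were tested over 17874 genes with edgeR 4.0.16 (R 4.3.3; TMM, filterByExpr, quasi-likelihood F test, Benjamini-Hochberg, threshold 0.05), without offspring sex, which no column shows. SE was derived from the fold change and F. DESeq2 1.42.0, limma-voom (limma 3.58.1), other scalings and filters, and each library left out were alternatives. The code was tested on simulated data. Exon lengths come from GENCODE vM21 on GRCm38, and promoters and gene coordinates from RefSeq GRCm38.p6, matched for 10 of 10 receptors. Transcripts of the 22 Eph and ephrin genes were compared with all others by blastn 2.17.0 (copies at 95% identity over 200 bases). A planned comparison of protein sequences was not analysed here. The receptors and the lists were chosen with earlier results of these data known. The text names all Eph receptors and ephrins, and the 4 genes of lowest p in each partner list because none passed.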

Additional observations from a re-analysis of the deposited data

How the results depend on the processing

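The count of receptors with a fold change above 0 was 7 or 8 of 10 under every alternative run. Under DESeq2, 1 of the 10 passed, and 173 of all genes against 4 with edgeR. Limma-voom, the other scalings and filters and each left-out library gave 0 of 10. Leaving out each library gave 1 to 4 genes past the edgeR test and 1062 to 2369 at an unadjusted p under 0.05, the lowest of both without methylphenidate-sired library 6. Among the ligands, the other receptors and the partners, 0 passed throughout, and those at an unadjusted p under 0.05 numbered 5 with all libraries and from 1 to 7 without 1 of them, with 1 without methylphenidate-sired library 4, 2 without methylphenidate-sired library 2 or saline-sired library 4, 3 without methylphenidate-sired library 6, and 7 when saline-sired library 5 was left out. The sign of small fold changes turned for Epha6 (-0.18 to 0.22), Ephb1 (-0.26 to 3.3e-04), Epha1 (-0.30 to 0.43), Epha2 (-0.16 to 0.33), Efna1 (-0.21 to 0.12), Efna2 (-0.035 to 0.19), Efna5 (-0.011 to 0.17), Efnb1 (-0.0078 to 0.33) and Efnb2 (-0.028 to 0.15) as libraries were left out, and the cause was not tested. The share of Epha4 in the summed level of the 10 receptors was 34.1% per exon length and 41.0% per coding length, where the lengths differ by construction. The median log2 fold change of all genes moved by under 0.1 with scaling. No paired analysis was possible because the labels and column names used here pair no animals between the 2 groups. The column numbers, of which the groups share 1 only (4), are not said to mark pairs. Protein length and the deposited FPKM and TPM values were not run as alternatives for the levels. Precision is limited by 3 libraries per group, and for Ephb4 by as few as 100 reads.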
